A study of Homo sapiens with 3 samples.

Results

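The genes described here encode the subunits of the 5 complexes of oxidative phosphorylation. They were chosen by symbol among the array probes whose RefSeq accession led to a protein-coding nuclear gene, taking names that start with NDUFA, NDUFB, NDUFC, NDUFS or NDUFV, SDHA to SDHD, UQCR, COX4 to COX8 or ATP5, and CYC1. This rule took 98 of the 19740 genes named on the array, and 85 of these are subunits: 37 of complex I, 4 of complex II, 9 of complex III, 17 of complex IV and 18 of complex V, the ATP synthase. The other 13 genes are 12 assembly factors and ATP5IF1, the inhibitor of the ATP synthase, and they are kept apart.

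Total RNA was taken from Huh7 cells, an established human hepatoma line, that were left untreated or were exposed for 24 h to 50 μM or 100 μM chlorogenic acid (CA), a plant polyphenol made of caffeic and quinic acid. The control is labelled as having no treatment, while the study describes DMSO, the solvent of CA, as its vehicle reference and untreated control. The study asked whether CA makes tumor cells differentiate, and the comparison made here asks whether transcripts of the mitochondrial ATP-producing machinery differed between treated and untreated cells. Each group had a single Cy3-labelled RNA sample on a one-colour Agilent array, which makes 3 arrays without a replicate. No test was therefore possible, each difference below is a difference between 2 arrays, and both comparisons with untreated cells use the same untreated array.

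Complexes I to IV pass electrons from NADH and succinate to oxygen and, except complex II, pump protons across the inner mitochondrial membrane. Complex V lets the protons flow back and makes ATP. Most subunits are encoded in the nucleus, and the few encoded by mitochondrial DNA, among them the catalytic subunits of complex IV, are not members here. In the liver these complexes supply the ATP for glucose and urea synthesis, and their nuclear genes are known targets of NRF1 (nuclear respiratory factor 1), GABPA and YY1, which act with the coactivator PGC-1α.

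Motifs of these factors were looked for in the promoters. RefSeq windows of assembly GRCh38.p14, from 250 bases before to 50 bases after the gene start, were given for 69 of the 85 subunit genes. The palindromic NRF-1 motif of 10 bases, searched on both strands, stood in 4 of the 69 windows (5.80%) and in 1.75% of the 15843 windows of protein-coding genes. These 4 sites are shown because the motif is a well known shared element of the family, and each is printed 5′ to 3′ on the strand of its gene with the NRF-1 motif in capitals. NDUFA8 and NDUFB4 are accessory subunits of complex I, SDHD anchors complex II in the membrane, and ATP5F1C is the γ subunit, the turning shaft of the ATP synthase.
NDUFA8, chr9:122159764-122159793, minus strand: gttgccggatGCGCATGCGCaggcgccgtg
NDUFB4, chr3:120596167-120596196, plus strand: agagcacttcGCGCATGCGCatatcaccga
SDHD, chr11:112086753-112086782, plus strand: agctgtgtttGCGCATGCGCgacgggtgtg
ATP5F1C, chr10:7788145-7788174, plus strand: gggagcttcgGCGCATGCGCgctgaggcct

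The looser form of the motif, with any base in the fifth place, includes the 4 exact sites and stood in 17 windows (24.6%, against 8.58% of all windows), the ETS core CCGGAAG bound by GABPA stood in 20 (29.0%, against 14.2%) and the YY1 motif AAGATGGCG in 8 (11.6%, against 2.74%). The GC box GGGCGG was as common in subunit windows (59.4%) as in all windows (58.5%). A match is a description of letters, and no binding was measured.

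The array measured nearly the whole family. Of the 85 subunit genes, 82 had a probe well above background, as flagged by the scanner software, on all 3 arrays. COX7A1 and COX8C, isoforms of heart and muscle and of testis, did not pass this flag on a single array, and COX7B2 passed it on the CA 100 μM array only. Signals are given below as multiples of the 75th percentile of the array they were read on, and a log2 ratio is the difference of 2 such log2 signals. Probes differ in brightness for reasons of design, so signals are compared between arrays and not between genes. Of the 82 genes, 72 fell in the brightest of 5 equal classes of all measured genes.

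The arrays gave similar overall readings, with a 75th percentile between 1059 and 1249 intensity units and 70.4% to 71.1% of gene spots well above background. The CA 100 μM array had a band of 2460 gene spots with a disturbed surface signal, against 60 and 38 spots on the other arrays, and 11 subunit genes had a spot there (ATP5MC1, ATP5MC3, COX4I2, COX7B, COX7B2, NDUFC2, NDUFS1, NDUFS5, NDUFS8, NDUFV2 and UQCR10). Its part in their values was not tested, except by leaving these spots out. Among 9 hepatocyte markers, 7 were well above background on every array, including albumin (ALB, 103, 93.4 and 80.8 times the 75th percentile, given here and below in the order untreated, 50 μM, 100 μM) and α-fetoprotein (AFP, 90.2, 74.3 and 67.1). APOA1 (18.5, 20.7 and 18.5) and SERPINA1 (50.9, 53.6 and 50.6) of the same list were highest on the CA 50 μM array. HNF4A was so on 1 array. Transferrin (TF) was so on the CA 100 μM array (10.5) and had no reading on the untreated and CA 50 μM arrays once outlier spots were left out. Of 7 markers of blood, endothelial and stromal cells, 6 were well above background on all arrays at no more than 0.578 times the 75th percentile, and COL1A1 was so on 1. The technical spread of a log2 ratio, as the SD between the 10 spots of probes printed 10 times, had a median of 0.065 for CA 50 μM and 0.064 for CA 100 μM against untreated. Its 90th percentile over these probes was 0.16 and 0.17. It covers the array surface only and not cultures, labelling or hybridisation.

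At 50 μM CA the family lay slightly below its level on the untreated array. The median log2 ratio of the 82 subunits was -0.19, against -0.04 for the 14700 genes measured, and 66 of 82 subunits were below 0, where 56.3% of all genes were. The size of this median depended on the scaling, with -0.077 under quantile normalization, -0.059 under cyclic loess and -0.060 in the authors' table. The range was narrow, from -0.49 (ATP5PO) to 0.57 (NDUFB7). No subunit reached a 2-fold difference, which 0.456% of all genes reached upward and 0.517% downward. By a smaller rule, 4 of 82 subunits were at least 25% higher, where 13.1% of all genes were, and 9 of 82 at least 20% lower, where 10.5% of all genes were. The number at least 20% lower depended on the scaling and was 3 under quantile normalization, cyclic loess and in the authors' table, and 21 with centring on the median. In such RNA from whole cultures, fewer cells of a kind and less RNA per cell cannot be told apart.

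At 100 μM CA the displacement was smaller. The median was -0.09 over 82 subunits, against -0.03 for 14640 genes, with 60 of 82 subunits below 0 (57.7% of all genes were), but it was 0.0076 in the authors' own log2 table. No subunit reached 2-fold (0.444% of all genes upward, 0.205% downward), while 1 was at least 25% higher (5.9% of all genes) and 2 at least 20% lower (6.8%). The higher one was COX4I2 and the lower ones were COX6A2 and COX6B2, all tissue isoforms of complex IV. No other subunit reached either size. The COX4I2 spot on the CA 100 μM array lay in the disturbed band, and the readings of these isoforms are given with complex IV below. Between the doses, the subunits of the CA 100 μM array stood above those of the CA 50 μM array by a median of 0.09, against 0.0022 for 14666 genes, and 18 of 82 were below 0 (49.5% of all genes were). There, no subunit was 2-fold apart (0.58% of all genes upward, 0.0886% downward), 0 were at least 25% higher (4.17% of all genes) and 4 at least 20% lower (9.53%), namely COX6B2, NDUFS8, NDUFB7 and ATP5F1D.

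**Figure D1:**
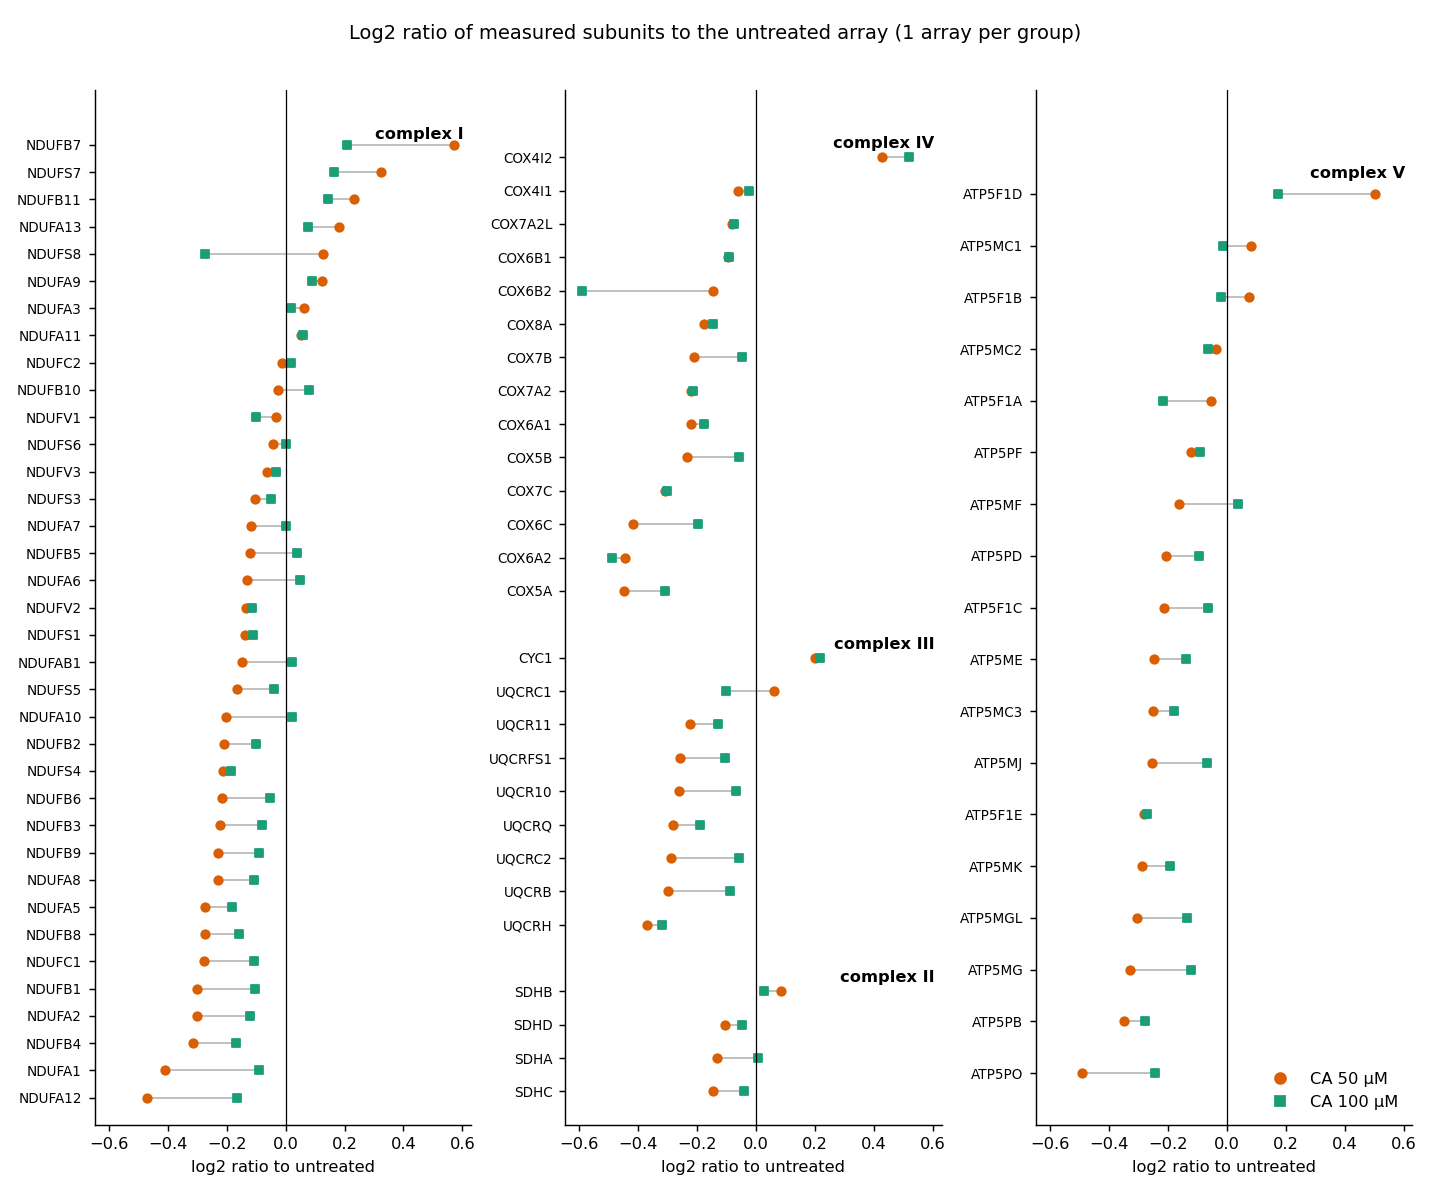
Log2 ratio (x axis) of 81 of the 82 measured subunits (y axis, by complex) on the CA 50 μM array (circles) and the CA 100 μM array (squares) to the same untreated array, 1 array per group, joined by a line for each gene. Most circles lie left of 0, with a median of all 82 measured subunits of -0.19, which was -0.060 in the authors' table. The squares lie closer to 0 with a median over the same 82 of -0.09, which was 0.0076 in the authors' table.

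Part of this displacement was shared by other genes of like signal. In the brightest class the median of all 2909 genes was -0.12 at 50 μM and -0.06 at 100 μM, and that of its 72 subunits was -0.21 and -0.09. The 7 subunits of the next class went the other way, with medians of 0.20 and 0.16 where all genes had -0.05 and -0.03. Between the doses, the median in the brightest class was 0.04 for all genes and 0.10 for the subunits, and in the next class 0.02 and -0.01. Of the other scalings, 3 gave values closer to 0. Quantile normalization gave a median of -0.08 at 50 μM, cyclic loess -0.06 and the authors' table -0.06, with 55, 55 and 53 of 82 subunits below 0. At 100 μM they left 45, 44 and 38 subunits below 0. Relative to the median of all genes under the same scaling, the subunits had -0.043, -0.032 and -0.025 at 50 μM. At 100 μM the subunit median was above that of all genes by 0.014 under quantile normalization and by 0.024 in the authors' table. Centring on the median of measured probes moved the median away from 0, to -0.24 at 50 μM and -0.11 at 100 μM. The part of signal in the result was not tested further.

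**Figure D2:**
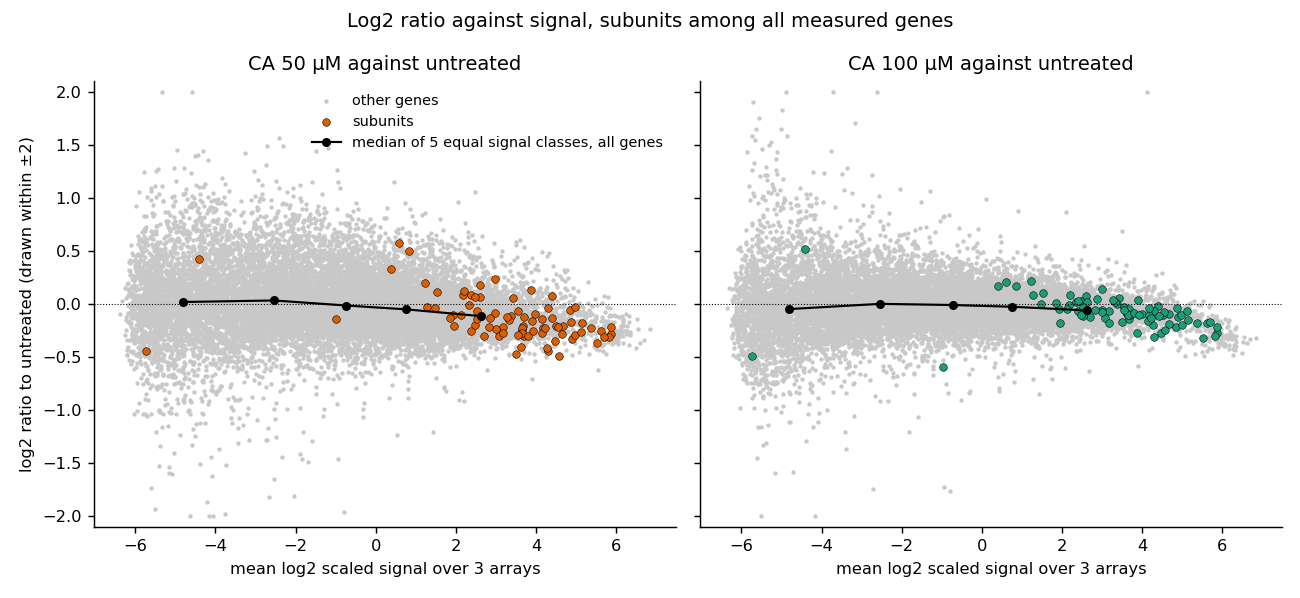
Log2 ratio to the untreated array (y axis, drawn within 2 units of 0) against the mean log2 scaled signal over the 3 arrays (x axis) for CA 50 μM and CA 100 μM, with the 82 subunits coloured over all other genes in grey and black points for the median of 5 equal signal classes of all genes. The subunits crowd at the bright end, where the median of all genes was -0.12 at 50 μM and -0.06 at 100 μM.

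The complexes did not share 1 value. At 50 μM the median was lowest for complex III (-0.26, 9 genes), then complex V (-0.23, 18 genes), complex IV (-0.22, 14 genes), complex I (-0.13, 37 genes) and complex II (-0.12, 4 genes, 0.0041 when the probes of a gene were averaged). Complex III stayed lowest and complex II highest in 11 of 11 alternative settings, and complexes I and II were the highest pair in all of these. At 100 μM the order was complex IV (-0.16), V (-0.11), III (-0.10), I (-0.05) and II (-0.02), where complexes I and II lay above 0 under quantile normalization (0.015 and 0.043), cyclic loess (0.018 and 0.045) and in the authors' table (0.045 and 0.049). Complex II remained highest in 11 of 11 alternatives and complex IV lowest in 9. Not every alternative could alter these orders. Centring on the median shifts all genes of an array alike. Leaving out saturated spots repeated the reported medians at both doses, and the looser filters on dim probes repeated them at 50 μM. Neighbouring complexes overlapped widely in their genes, since the medians spanned 0.14 at 50 μM while complex I alone ranged from -0.47 to 0.57. With 1 array per group the order has no replicate check.

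**Figure D3:**
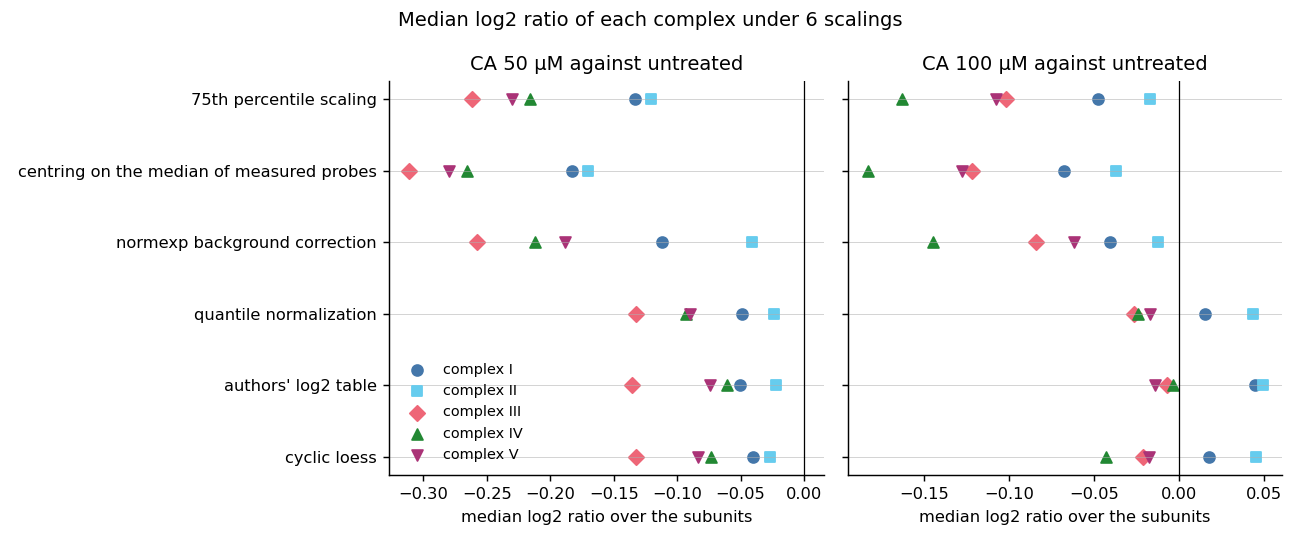
Median log2 ratio to the untreated array over the subunits of each complex (x axis, symbols for complexes I to V) under 6 scalings of the same arrays (y axis), for CA 50 μM and CA 100 μM. Every median at 50 μM lies below 0 with complex III lowest, whereas at 100 μM those of complexes I and II lie above 0 under the 3 lower scalings of the plot.

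Complex I, the NADH dehydrogenase, holds 7 nuclear core subunits, which carry the flavin and iron-sulfur centres, and 30 measured supernumerary subunits around them. At 50 μM the core genes had a median of -0.03, with 3 above and 4 below 0, and it was above 0 under quantile normalization (0.094), cyclic loess (0.126) and in the authors' table (0.109). The supernumerary genes had -0.18 with 24 of 30 below 0. The core median lay 0.15 above the supernumerary one, and between 0.056 and 0.18 above it in all 11 alternatives, of which 2 left NDUFS7 out. Centring on the median could not change this difference. The looser filters on dim probes and leaving out saturated or disturbed spots left it as reported. At 100 μM the order was turned, with -0.10 for the core and -0.04 for the supernumerary genes. The core median lay above the supernumerary one in 1 of 11 alternatives, the one without the spots of the disturbed band. That setting took NDUFS1, NDUFS8 and NDUFV2 out, so it compares other genes, and the 4 remaining core genes had 0.025. The supernumerary median at 100 μM was above 0 under quantile normalization (0.027), cyclic loess (0.024) and in the authors' table (0.048).

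Among the core genes described here, NDUFS7, which carries the last iron-sulfur cluster before ubiquinone, read 1.17, 1.47 and 1.31 times the 75th percentile, or log2 ratios of 0.33 and 0.16. It was above the untreated reading on both CA arrays in the 9 alternatives that gave it a value. Its only untreated spot has a background flag and was left out of the other 2, normexp and the removal of flagged spots. NDUFS8, another iron-sulfur protein of the ubiquinone module, read 15.1, 16.5 and 12.4, which gave 0.13 at 50 μM and -0.27 at 100 μM, but its CA 100 μM spot lay in the disturbed band. NDUFV1, the flavin subunit that accepts electrons from NADH, read 32.4, 31.6 and 30.1 (-0.03 and -0.10, but up to 0.126 and 0.046 under other scalings). Its partner NDUFV2 read 22.5, 20.5 and 20.8 (-0.13, up to 0.013 under other scalings, and -0.11), with its last spot in the band. The 2 flavoprotein subunits thus differed little between the arrays. NDUFS1, the largest subunit of the peripheral arm, read 6.05, 5.50 and 5.61 (-0.14 and -0.11), again with a CA 100 μM spot in the band, and NDUFS3 read 3.91, 3.64 and 3.78 (-0.10 and -0.05).

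Among the supernumerary genes, the highest was NDUFB7, a subunit of the membrane arm at the intermembrane side, which read 1.26, 1.87 and 1.45. Its log2 ratios of 0.57 at 50 μM and 0.21 at 100 μM ranged from 0.52 to 0.59 and from 0.19 to 0.22 over the alternatives. NDUFB11, a membrane-arm subunit encoded on the X chromosome, read 7.27, 8.53 and 8.03 (0.23 and 0.14). Lowest by the brightest probe was NDUFA12, which joins complex I late in assembly, with 13.0, 9.39 and 11.6 and ratios of -0.47 and -0.17 from its brighter probe. Its other probe gave -0.19 and -0.06, and the mean of both, -0.33 at 50 μM, was above the ratio of NDUFA1. NDUFA1, a small X-linked membrane subunit needed for assembly, read 13.8, 10.4 and 13.0 (-0.41 and -0.09). Thus for NDUFA12 and NDUFA1 the CA 100 μM reading lay between the other two, and their upward differences between the doses (0.30 and 0.32) were the largest among the subunits, although the other NDUFA12 probe gave 0.13. The downward differences of COX6B2 (-0.44), NDUFS8 (-0.40), NDUFB7 (-0.36) and ATP5F1D (-0.33) were larger in size. NDUFS5, printed in 10 spots, read 30.7, 27.4 and 29.9 with spot SDs of 0.032 and 0.030 for its ratios of -0.17 and -0.04. NDUFS6, also printed in 10 spots, differed little (-0.04 and 0.0018). NDUFA10 was unclear, since its brighter probe gave -0.20 and its dimmer one 0.38 at 50 μM.

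Complex II, succinate dehydrogenase, is also an enzyme of the tricarboxylic acid cycle and is encoded wholly in the nucleus. SDHA, its flavoprotein, read 3.69, 3.36 and 3.71 with the brightest of 4 probes, a log2 ratio of -0.13 at 50 μM, while the others gave 0.26, 0.12 and -0.01. SDHB, the iron-sulfur subunit, read 5.10, 5.40 and 5.19 (0.08 and 0.03). The membrane anchors SDHC and SDHD had -0.15 and -0.11 at 50 μM and -0.04 and -0.05 at 100 μM, with 1 of 3 SDHC probes at 0.15. With the probes at odds, no single direction can be given for complex II.

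Complex III passes electrons from ubiquinol to cytochrome c. CYC1, the cytochrome c1 that hands electrons on, stood apart from its partners and read 2.13, 2.45 and 2.48, with ratios of 0.20 (0.063 with normexp) and 0.22. UQCRFS1, the Rieske iron-sulfur protein, read 16.5, 13.8 and 15.3 (-0.26 and -0.11). The core proteins differed from each other, with UQCRC1 at 5.61, 5.85 and 5.22 (0.06 and -0.10) and UQCRC2 at 12.6, 10.3 and 12.1 (-0.29 and -0.06, up to 0.016 under another scaling). UQCRC2 was printed in 10 spots, with an SD of 0.064 for the ratio at 50 μM. UQCRH, the hinge protein that holds cytochrome c1, had the lowest ratio of the complex and its 2 probes gave -0.37 and -0.36 at 50 μM and -0.32 and -0.25 at 100 μM. Of the small subunits, UQCRB (-0.30), UQCRQ (-0.28), UQCR10 (-0.26) and UQCR11 (-0.22) were all below the untreated reading at 50 μM, though 1 of 3 UQCR10 probes gave 0.14.

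Complex IV, cytochrome c oxidase, passes electrons to oxygen. Its 11 subunits other than the tissue isoforms were below 0 on both arrays, with medians of -0.22 at 50 μM and -0.15 at 100 μM. Of all 14 measured genes of the complex, tissue isoforms included, 13 were below 0 at each dose, but only 9 and 10 under quantile normalization. COX5A read 23.3, 17.1 and 18.8 (-0.45 and -0.31) and was below 0 under all alternatives. COX6C read 22.1, 16.6 and 19.3 (-0.42 and -0.20), and COX7C, printed in 10 spots, read 65.3, 52.7 and 52.9 (-0.31 and -0.30, spot SDs of 0.078 and 0.079). In the authors' table the COX7C ratios were only -0.052 and -0.021. COX5B had -0.24 and -0.06, the latter 0.0023 under cyclic loess. COX4I1, the common form of the regulatory subunit 4, was near 0 with -0.06 and -0.03, and above 0 under cyclic loess (0.050 at each dose).

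Complex IV is known for isoforms that differ between tissues. COX6A1, COX7A2 and COX8A, the forms of liver and most tissues, had ratios of -0.22, -0.22 and -0.18 at 50 μM and -0.18, -0.21 and -0.15 at 100 μM. COX6B1 (-0.10 and -0.09), COX7B (-0.21 and -0.05) and COX7A2L (-0.08 and -0.08), a factor of supercomplex assembly, were likewise below 0. The ratios of their tissue-restricted counterparts spread more widely. COX4I2, the lung and hypoxia isoform, read 0.038, 0.051 and 0.054 with ratios of 0.43 and 0.52, which normexp background correction brought down to 0.041 and 0.15, and its CA 100 μM spot lay in the disturbed band. COX6A2, the heart and muscle form, read 0.023, 0.017 and 0.017 (-0.45 and -0.49, but -0.22 and -0.21 with normexp). COX6B2, the testis form, read 0.60, 0.54 and 0.40 with its brighter probe (-0.15 and -0.59), and 0.083, 0.087 and 0.069 with the other (0.07 and -0.27). COX7B2 on the CA 100 μM array was at least 1.61-fold higher than on the untreated and at least 1.78-fold higher than on the CA 50 μM array, from a single spot in the disturbed band.

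COXFA4, formerly named NDUFA4 and now counted with complex IV, is not among the 82 because its current symbol does not start with a chosen prefix. Its log2 ratios were -0.28 at 50 μM and -0.39 at 100 μM, below the complex IV medians. With it, the complex had medians of -0.22 and -0.18 over 15 genes.

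Complex V joins a catalytic F1 head, a turning ring of c subunits, a peripheral stalk that holds the head still, and small membrane subunits. The 5 genes of the head had a median of -0.05 at 50 μM, which was above 0 under quantile normalization (0.072), cyclic loess (0.099) and in the authors' table (0.085), and -0.07 at 100 μM. They differed among themselves. ATP5F1D, the δ subunit of the central stalk, read 1.53, 2.17 and 1.73 (0.50 and 0.17) and stayed between 0.44 and 0.54 at 50 μM over the alternatives. ATP5F1B, the catalytic β subunit, read 20.8, 21.9 and 20.5 (0.07 and -0.02, up to 0.076 under another scaling). ATP5F1A, the α subunit, read 30.6, 29.5 and 26.4 (-0.05, up to 0.099 under another scaling, and -0.22). ATP5F1C and ATP5F1E, the γ and ε subunits, had -0.21 and -0.28 at 50 μM and -0.07 and -0.27 at 100 μM. ATP5F1C was at 3.1e-05 at 100 μM under cyclic loess, and ATP5F1E was at -0.038 and -0.015 under quantile normalization.

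The 3 genes of the c ring encode the same mature protein. ATP5MC1 read 4.44, 4.70 and 4.40 (0.08 and -0.01), ATP5MC2 read 20.1, 19.5 and 19.2 (-0.04 and -0.06), and ATP5MC3 read 54.5, 45.8 and 48.1 (-0.25, which was -0.015 in the authors' table, and -0.18). ATP5MC2 at both doses and ATP5MC1 and ATP5MC3 at 100 μM changed sign under other scalings, up to 0.098 for ATP5MC2 at 50 μM. The CA 100 μM spots of ATP5MC1 and ATP5MC3 lay in the disturbed band.

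The peripheral stalk was lower as a group. All 4 genes were below 0 at each dose, with medians of -0.28 and -0.17, and over the alternatives the median at 50 μM lay between -0.33 and -0.13. ATP5PO, which links the stalk to the head and sets oligomycin sensitivity, read 28.0, 19.9 and 23.6. Its ratio of -0.49 was the lowest of the family at 50 μM, with -0.56 to -0.35 over the alternatives, and at 100 μM it was -0.25. ATP5PB had -0.35 and -0.28, ATP5PD -0.21 and -0.09, and ATP5PF -0.12 and -0.09. The 6 small membrane genes, which shape the dimer of the enzyme and the inner membrane folds, were all below 0 at 50 μM with a median of -0.27 and a range of -0.33 (ATP5MG) to -0.16 (ATP5MF). At 100 μM their median was -0.13 with 5 of 6 below 0. They were 0.18 higher on the CA 100 μM than on the CA 50 μM array, and all 6 lay above 0 in that comparison. ATP5MGL resembles ATP5MG in sequence, and whether its probe (-0.30 and -0.13) reads transcripts of both was not tested.

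ATP5IF1, the inhibitor that stops the ATP synthase from running backwards, read 50.3, 39.7 and 43.9, or -0.34 and -0.19, and its second probe gave -0.30 and -0.15. The 12 assembly factors with the chosen prefixes (8 of complex I, 4 of complex II) had medians of -0.10 and -0.05, closer to 0 than the subunits. SDHAF4 was the lowest at 50 μM with -0.36, and SDHAF2, which inserts the flavin into SDHA, the highest with 0.22.

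Wider lists of the pathway lay closer to all genes than the subunits did, but they were not compared with the subunits at like signal. Of the subunits, 72 lay in the brightest class, where all genes had a median of -0.12 at 50 μM. Of 51 listed assembly factors and carriers, 48 were on the array and all 48 were measured, with medians of -0.10 at 50 μM and -0.03 at 100 μM. At 50 μM, 18 were above 0 and 30 below, 1 was at least 25% higher (13.1% of all genes) and 5 at least 20% lower (10.5% of all genes), a share of the list near that of all genes. The higher one was FOXRED1, a complex I assembly factor, with 0.67 at 50 μM and 0.49 at 100 μM. UQCC3 of complex III (-0.43 and -0.25) and COX17, the copper chaperone of complex IV (-0.42 and -0.18), were lowest. The tricarboxylic acid cycle genes, which supply NADH and succinate, had medians of 0.05 and -0.01 over the 13 measured of 14, with 7 above and 6 below 0 at 50 μM. IDH3G, a subunit of the NAD-dependent isocitrate dehydrogenase, had 0.52 and 0.37, and CS, citrate synthase, had -0.37 and -0.11.

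The 13 regulators of mitochondrial biogenesis had medians of 0.0027 and -0.0046, with 7 above and 6 below 0 at 50 μM. PPARGC1A, which encodes the coactivator PGC-1α, was lowest and read 0.28, 0.18 and 0.20, with ratios of -0.63 and -0.50. ESRRA, the receptor with which it drives these genes, read 3.42, 2.51 and 2.94 (-0.45 and -0.22). NRF1, whose motif is printed above, read 0.12, 0.15 and 0.14 (0.35 and 0.18), and TFAM, the mitochondrial transcription factor, had 0.12 and 0.26. Measured subunits with the looser NRF-1 motif had a median of -0.23 at 50 μM (16 genes) and those without it -0.20 (51 genes). The 4 genes with the exact sites printed above had ratios of -0.23 (NDUFA8), -0.31 (NDUFB4), -0.11 (SDHD) and -0.21 (ATP5F1C). Subunits with and without the ETS core had -0.19 and -0.21 at 50 μM, and those with and without the GC box -0.20 and -0.21. The 8 with the YY1 motif had -0.03 at 50 μM and 0.01 at 100 μM, and the 59 without it -0.21 and -0.10. Of the 8 YY1 windows, 5 belong to complex I and 0 to complex IV, so this split overlaps that between complexes. No test was made of these differences.

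The subunits above 0 at 50 μM were not spread evenly over the chromosomes, a feature noticed after the values were seen. Of the 11 measured subunit genes on chromosome 19, 6 were above 0 at 50 μM, among them NDUFB7, ATP5F1D, NDUFS7 and NDUFA13, and their median was 0.05 (range -0.26 to 0.57). Of the 71 on other chromosomes, 10 were above 0 and the median was -0.21. At 100 μM the medians were 0.02 and -0.09, with 7 of 11 and 15 of 71 above 0. All genes showed a smaller difference of this kind, with medians of 0.03 for 1025 genes of chromosome 19 and -0.04 for 13675 others at 50 μM, and -0.02 and -0.03 at 100 μM. The share above 0 at 50 μM was 54.5% of the subunits and 52.7% of all genes on chromosome 19, and 14.1% of the subunits and 43.0% of all genes elsewhere. At 50 μM the share of subunits on chromosome 19 was thus near that of all its genes, and the larger gap lay on the other chromosomes. At 100 μM the share above 0 was 63.6% of the subunits and 46.5% of all genes on chromosome 19, and 21.1% of the subunits and 42.0% of all genes elsewhere. The G+C content of the promoter window, with a median of 61.3% in 69 subunits and 62.7% in all windows, was weakly related to the ratio at 50 μM (Pearson's r = 0.21 and Spearman's rho = 0.30 across 67 genes, which are not independent and share the same arrays) and at 100 μM (r = 0.16 and rho = 0.23). Over all 11339 genes with a window the relation at 50 μM was weaker still (r = 0.065 and rho = 0.047).

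**Figure D4:**
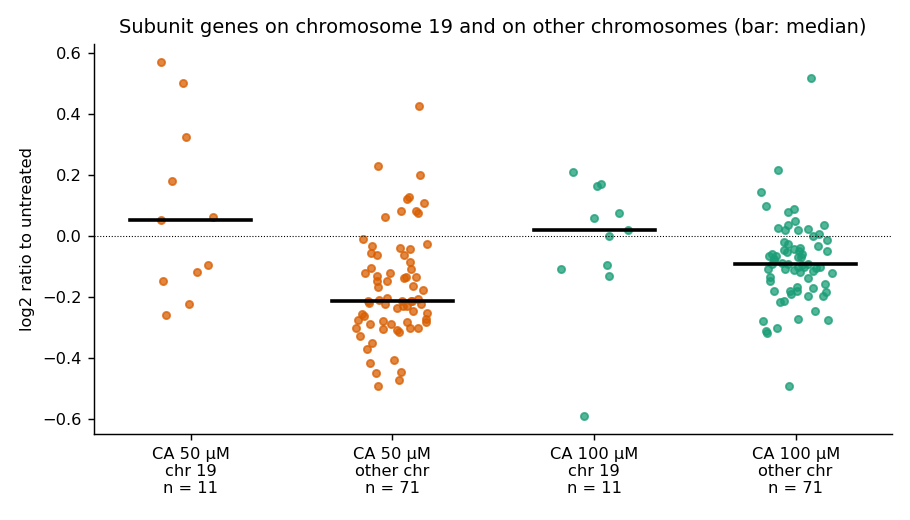
Log2 ratio to the untreated array (y axis) of the measured subunit genes on chromosome 19 (11 genes) and on other chromosomes (71 genes) at CA 50 μM and CA 100 μM (x axis), 1 point per gene with the median as a bar. At 50 μM the bars lie at 0.05 and -0.21, and at 100 μM at 0.02 and -0.09.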

How the data were processed

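The authors labelled total RNA with Cy3, hybridised it to Agilent 4x44K arrays and read the images with Feature Extraction 11.0.1.1. The deposited spot files hold intensity values, background-subtracted and detrended but not scaled between arrays. A second file deposited by the authors gives log2 values for each probe. Its method is not given in the sources used here, and its columns share a median of 6.22.

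Control spots and outlier spots were left out (429, 569 and 596 gene spots in the order of dose), spots of a probe were averaged, and log2 of the processed signal was taken relative to the 75th percentile of each array. A ratio needed a probe well above background (at least 50% of its spots) on both arrays, and a bound set the bright reading against the floor of the other array. A gene was given by its brightest probe. Accessions led to symbols for 25771 of 34127 probes through RefSeq gene and promoter tables of GRCh38.p14, and 5 non-coding symbols with the prefixes were left out. With 1 array per group nothing was tested, and a fold of 2 and a difference of 25% upward or 20% downward are rules of size. The number of arrays limits the precision. The ratios and 2-fold calls were checked on simulated data with planted changes larger than any gene ratio given here. The 25% and 20% rules and the choice of the brightest probe were not part of that check.

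The members and gene lists were chosen with earlier results of these data known. Named genes were the core and catalytic subunits, the isoform sets, and the 5 highest and 5 lowest subunits of each comparison (other genes were named after their values were seen, as examples of their groups). An area was called disturbed where a window of 17 rows by 7 columns held at least 5 spots, and at least 25% of dim spots, 4-fold brighter on 1 array. As 11 alternatives, cyclic loess, quantile normalization, median centring, normexp with an offset of 50 on median spot intensities (without spots with a background flag, which left 79 of the 82 subunits at 50 μM and 75 at 100 μM), the authors' table, a filter on 1 array, no filter, and leaving out saturated spots, disturbed areas or spots with a background flag, and averaging the probes of a gene were tried. The values of 1 measured subunit are not reported here, but it stayed in every count and median. Python 3.11.15, numpy 2.4.6, pandas 2.3.3, R 4.3.3 and limma 3.58.1 were used.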

Additional observations from a re-analysis of the deposited data

How the results depend on the processing

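No paired analysis was possible because each group has 1 array, and for the same reason no replicate could be left out. Quantile normalization, cyclic loess and the authors' log2 table gave medians of the subunits closer to 0. At 50 μM these were -0.077, -0.059 and -0.060 (-0.19 as reported), or -0.043, -0.032 and -0.025 relative to all genes, and by complex -0.049, -0.040 and -0.050 for I, -0.024, -0.027 and -0.022 for II, -0.132, -0.133 and -0.135 for III, -0.093, -0.073 and -0.061 for IV, and -0.090, -0.084 and -0.074 for V. At 100 μM the subunits had -0.0094, -0.0072 and, with the sign turned, 0.0076 in the authors' table. Relative to all genes they had 0.014 under quantile normalization and 0.024 in the authors' table. By complex, I had 0.018 under loess and 0.045 in the authors' table, where II had 0.049, and the 3 settings gave -0.026, -0.022 and -0.0069 for III, -0.024, -0.043 and -0.0035 for IV, and -0.017, -0.018 and -0.014 for V.

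Complex II at 50 μM was -0.041 with normexp and turned to 0.0041 when probes of a gene were averaged, which also gave it 4.5e-05 between the doses. Complex III between the doses was 0.156 with normexp. At 50 μM the subunits at least 20% lower numbered 3 under quantile normalization, loess and the authors' values and 21 with centring on the median, against 9 as reported, and 2 were at least 25% higher with normexp. At 100 μM, 0 were 25% higher with normexp or without disturbed areas, 2 with the filter on 1 array and 3 without a filter, and 5 were 20% lower with centring. Between the doses, 25% higher subunits numbered 2 with centring or no filter and 1 with normexp or the filter on 1 array, and lower ones 2 with normexp. Without a filter 1 subunit was 2-fold lower at each dose, and 1 was 2-fold higher at 100 μM and between the doses, as with the filter on 1 array.

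Among named genes whose reported ratio exceeded the SD between spots, the following changed sign. At 100 μM, quantile normalization, loess and the table gave ATP5MC2 0.037, 0.030 and 0.040, and NDUFV1 0.012, 0.010 and 0.046. ATP5MC3 had 0.010 under quantile normalization and 0.037 in the table, and ATP5F1C 3.1e-05 under loess. At 50 μM, NDUFV2 had 0.0064 under loess and 0.013 in the table, and SDHC 0.018 under quantile normalization and 0.0046 in the table. Averaging probes gave NDUFA10 0.091 and SDHA 0.059 at 50 μM, and SDHA -0.012 between the doses. The cause was not tested. Of the alternative values that summarise the family, 300 moved by less than the SD between spots (counts by no more than 1.5 times), 61 moved further and 2 turned a ratio that exceeded this SD. Smaller ratios that changed sign are given with the complexes and genes above. Low signal left 3 isoforms of complex IV without a ratio.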
